A study of Mus musculus with 8 samples.

Results

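The proteasome genes of the mouse testis were taken as every gene whose symbol is Psma, Psmb, Psmc, Psmd, Psme, Psmf or Psmg followed by a number. This symbol rule found 48 genes among the 19938 genes measured, on 54 probe sets that each carried exactly 1 symbol. Of these, 43 genes had 1 such probe set, and for the other 5 (Psma3, Psma5, Psmb3, Psmc1 and Psmd2) the brightest over all arrays stood for the gene. Psmc3ip and Psme3ip1, whose products are not proteasome subunits, fell outside the rule. All 48 genes are described here, and none was dropped for a low level.

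The proteasome is the chamber in which cells break down proteins that carry a ubiquitin chain. Its core is a stack of rings, with outer rings of alpha subunits (Psma) that form the gate and inner rings of beta subunits (Psmb) that hold the cutting sites. A regulatory cap binds the ubiquitin chain, which its lid (part of the Psmd genes) cuts off. The base of this cap holds ubiquitin receptors (other Psmd genes) and the ATPases (Psmc) that unfold the protein. Other caps, the activators (Psme), open the gate without ATP. Some subunits have alternative forms. Interferon-induced beta subunits make the immunoproteasome, which cuts peptides for MHC class I, and in male germ cells the alpha subunit Psma8 can take the place of Psma7.

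RNA was extracted with Trizol from whole testes of 3 Ing2+/+ and 5 Ing2−/− male mice aged 2 to 3 months. The labels call the mice of both groups littermates, without saying that equal replicate numbers shared a litter. The Ing2−/− mice lack exon 2 of Ing2 in all tissues. The allele was made in embryonic stem cells, recombined between loxP sites by EIIa-Cre, which is active in the early embryo, and passed on in crosses with C57BL/6J mice that removed the Cre transgene, so that the background is mixed. Each RNA went on an Affymetrix Mouse Gene 1.0 ST array, and the deposited values are RMA levels on the log2 scale, on which a difference of 1 is a doubling. Since whole testis was used, fewer cells of a type and less RNA per cell cannot be told apart.

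Ing2 itself lay at 7.43, 7.60 and 7.34 in the Ing2+/+ arrays and at 5.06, 5.64, 5.21, 5.29 and 5.25 in the Ing2−/− arrays. As a mark of low signal, the median level of probe sets with no symbol was taken, which was 5.47 to 5.62 on the different arrays. Ing2 was below this mark on 4 of the 5 Ing2−/− arrays. The measured values fell by 2.16 on the log2 scale (SE 0.127, limma adjusted p = 0.000395), and with the mark set as the lowest level Ing2 was at least 3.63-fold lower. Array medians were 6.41 to 6.45 in Ing2+/+ testes and 6.46 to 6.53 in Ing2−/− testes. Correlations between arrays, taken across probe sets that are not independent of each other, were at least 0.995 within Ing2+/+ and at least 0.993 within Ing2−/− without replicate 3. Ing2−/− replicate 3 stood apart, with correlations of 0.981 to 0.989 with the other Ing2−/− arrays. Calls of proteasome genes and of the pathway genes named that change without it are given both ways.

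Most proteasome genes stood slightly higher in Ing2−/− testes, by small amounts. Of the 48, 36 had a mean above that of Ing2+/+ testes and 12 below, which is 75.0% above against 54.3% of all genes. The median difference was 0.11 on the log2 scale against 0.017 for all genes, and 45 of the 48 genes differed by less than 0.5. Differences ran from −0.37 for the inhibitor Psmf1 to 0.74 for the activator Psme2. Of the 48 genes, 47 were above the mark of low signal on all 8 arrays, the exception being Psmb8.

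Few of these differences passed the test across all probe sets. Levels were compared with limma, and a gene was called where its p, adjusted by Benjamini-Hochberg over the 35557 probe sets, was under 0.05. Only 3 genes were called, and all 3 rose: Psma4, Psmd1 and Psmg1. That is 6.25% of the proteasome genes, against 4.98% of all genes called in either direction and 1.97% called higher, so the share called was near that of all genes. At an unadjusted p under 0.05 the count was 15 higher and 2 lower, or 35.4% against 30.0% of all genes. In 18 genes the groups did not overlap, which is 37.5% against 31.6% of all genes. The balance of directions was 14 higher (29.2%, against 16.7% of all genes) and 4 lower (8.33%, against 14.9%). Over all genes 392 were called higher and 600 lower, a split that became 257 and 692 after each array was centred on its median and 289 and 904 after cyclic loess. With the same centring 33 proteasome genes stood above 0, and with loess 34.

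**Figure D1:**
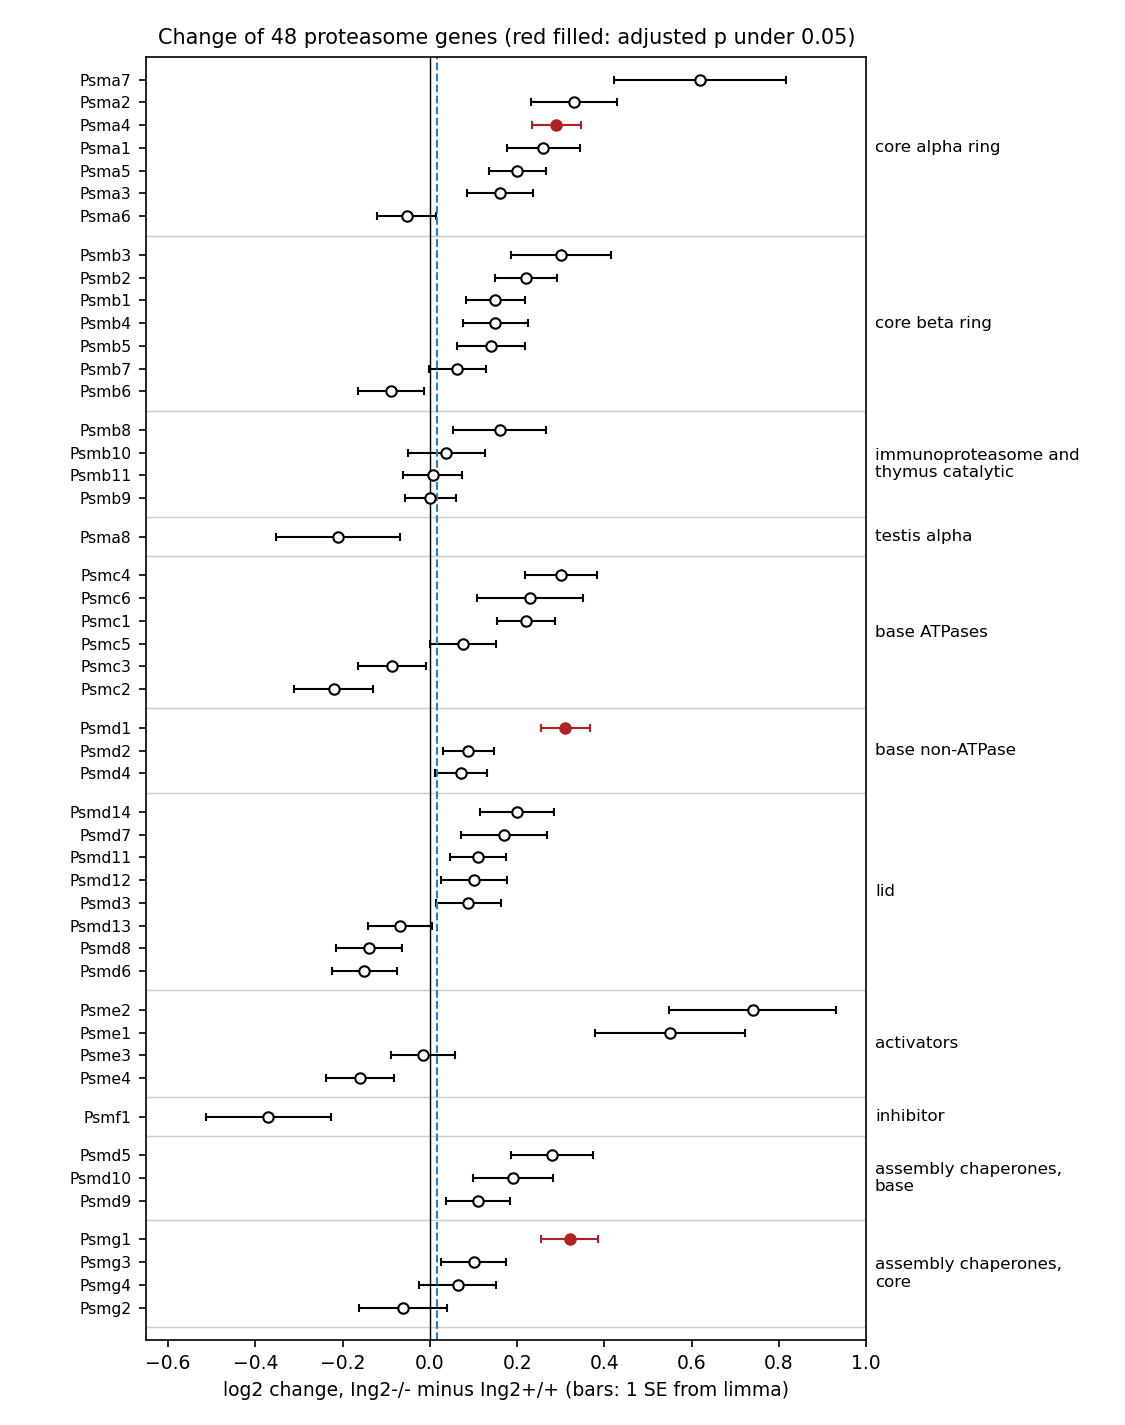
Change of each of the 48 proteasome genes, Ing2−/− minus Ing2+/+ on the log2 scale, grouped by place in the particle, with bars of 1 SE from limma. The dashed line is the median of all genes (0.017), and the filled red points are the 3 genes called, Psma4, Psmd1 and Psmg1, each close to 0.3, while Psme2, Psma7 and Psme1 lie farther to the right with wider bars.

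Psma4, an alpha ring subunit, gave levels of 9.29, 9.36 and 9.35 in Ing2+/+ testes and 9.64, 9.58, 9.68, 9.62 and 9.60 in Ing2−/− testes. The change was 0.29 (SE 0.0568, limma adjusted p = 0.0307), or 1.22-fold. All 5 Ing2−/− arrays were above all 3 Ing2+/+ arrays, and replicate 3 did not stand out.

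Psmd1, the large scaffold subunit of the base to which other base subunits and ubiquitin-handling proteins attach, had the smallest adjusted p among the proteasome genes. Its levels were 9.92, 9.86 and 9.90 in Ing2+/+ testes and 10.23, 10.16, 10.20, 10.25 and 10.17 in Ing2−/− testes. It rose by 0.31 (SE 0.0561, limma adjusted p = 0.0253), 1.24-fold, with the groups 0.243 apart at their nearest.

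Psmg1, a chaperone that pairs with Psmg2 to assemble the alpha ring and is not part of the finished particle, was at 8.43, 8.52 and 8.51 in Ing2+/+ testes and at 8.84, 8.86, 8.69, 8.87 and 8.77 in Ing2−/− testes. The rise was 0.32 (SE 0.0664, limma adjusted p = 0.0375). In this gene Ing2−/− replicate 3 was the lowest of its group. Its partner Psmg2 overlapped between groups at −0.061 (adjusted p = 0.742), Psmg3 was at 0.10 (adjusted p = 0.410) and Psmg4 at 0.064 (adjusted p = 0.683).

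These 3 calls were sensitive to the arrays used. With any 1 of the 3 Ing2+/+ arrays left out, or with Ing2−/− replicate 1 or 5 left out, no proteasome gene was called by limma (11 to 17 had an unadjusted p under 0.05), although the changes moved little, staying at 0.27 to 0.30 for Psma4, 0.30 to 0.32 for Psmd1 and 0.29 to 0.35 for Psmg1. The adjusted p then lay at 0.0602 to 0.134 for Psma4, 0.0518 to 0.117 for Psmd1 and 0.0662 to 0.151 for Psmg1. Psmg1 was also not called without Ing2−/− replicate 2 (adjusted p = 0.0613) or replicate 4 (adjusted p = 0.0527). The count of all genes called dropped in the same fits, to 49, 40 and 149 without Ing2+/+ replicate 1, 2 and 3 and to 473 and 213 without Ing2−/− replicate 1 and 5. Without Ing2−/− replicate 3 it went the other way. Then 7 proteasome genes were called, all higher (Psma2, Psma4, Psma7, Psmd1, Psme1, Psme2 and Psmg1), or 14.6% against 16.5% of all genes in either direction and 8.72% called higher. Centring each array on its median left Psmd1 (adjusted p = 0.0496) as the single call, with Psma4 at 0.0537 and Psmg1 at 0.0769.

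Among the classes of several genes, the alpha ring was the one in which the groups separated most often. In 6 of its 7 genes (85.7%) all Ing2−/− arrays were above all Ing2+/+ arrays, against 16.7% of all genes. The median difference of the class was 0.26 on the log2 scale. In Psma3 the separation was only 0.00153 (difference 0.16, limma adjusted p = 0.206), and without it 5 genes remain. Psma4 was the one called.

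The largest difference in the ring was that of Psma7, the constitutive subunit that Psma8 replaces in germ cells. Its levels were 7.72, 7.97 and 7.82 in Ing2+/+ testes and 8.22, 8.23, 9.04, 8.17 and 8.63 in Ing2−/− testes. The difference of 0.62 (SE 0.197, limma adjusted p = 0.0919) did not pass the test. Replicate 3 was far above the rest of its group, and without it the difference was smaller and the spread too, at 0.47 (limma adjusted p = 0.0368).

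Psma2 gave 8.0, 8.05 and 8.04 against 8.36, 8.17, 8.64, 8.36 and 8.29, a difference of 0.33 (SE 0.0994, limma adjusted p = 0.0808, and 0.0326 without Ing2−/− replicate 3). Psma1 differed by 0.26 (adjusted p = 0.0915) and Psma5 by 0.20 (adjusted p = 0.100), and in both the groups were separate. Psma6 was the exception of the ring. It lay at 10.94 to 10.99 in Ing2+/+ testes and 10.76 to 10.98 in Ing2−/− testes, and the groups overlapped with a difference of −0.053 (adjusted p = 0.660).

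In the beta ring the same direction was seen less clearly. Of the 7 genes 6 stood above 0 with a class median of 0.15, none was called by limma (2 had an unadjusted p under 0.05), and only Psmb2 had separate groups. Psmb2 was at 8.36, 8.44 and 8.44 in Ing2+/+ testes and at 8.59, 8.59, 8.76, 8.53 and 8.67 in Ing2−/− testes (difference 0.22, SE 0.0704, limma adjusted p = 0.0976). Psmb3 had the largest difference, 0.30, but its Ing2+/+ arrays ran from 8.71 to 9.05 and met the Ing2−/− range of 8.94 to 9.34 (adjusted p = 0.136). Its second probe set gave 0.28 (adjusted p = 0.102). Psmb1 and Psmb4 each stood at 0.15, with overlap (adjusted p = 0.193 and 0.235).

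The 3 beta subunits that carry the cutting sites and have interferon-induced counterparts differed little. Psmb5, which cuts after hydrophobic residues, differed by 0.14 (adjusted p = 0.265), Psmb7, which cuts after basic ones, by 0.063 (adjusted p = 0.573), and Psmb6, which cuts after acidic ones, by −0.09 (adjusted p = 0.477). None of the 3 passed the test by limma, and none had an unadjusted p under 0.05.

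The immunoproteasome subunits showed no difference beyond the spread between arrays, with 0 of 4 called by limma and 0 at an unadjusted p under 0.05. Psmb8, the counterpart of Psmb5, was at 5.13, 5.10 and 4.82 in Ing2+/+ testes and 5.06, 5.12, 5.43, 5.17 and 5.09 in Ing2−/− testes, below the mark of low signal on every array, where a change could be missed (0.16, SE 0.107, limma adjusted p = 0.373). Psmb9, the counterpart of Psmb6, lay well above that mark at 7.36, 7.24 and 7.33 against 7.28, 7.37, 7.27, 7.30 and 7.33. The groups covered the same range, and the difference was 0.0013 (SE 0.0594, adjusted p = 0.991). Psmb10, the counterpart of Psmb7, had 6.44 to 6.69 in Ing2+/+ testes and 6.51 to 6.76 in Ing2−/− testes (0.037, adjusted p = 0.824). Psmb11, which belongs to the thymus, was at 5.86 to 6.03 and 5.87 to 6.01 (0.0062, adjusted p = 0.964). The direction of Psmb9, Psmb10 and Psmb11 was not settled, since median centring and cyclic loess turned all 3 below 0 and the class median of 0.022 to −0.029 and −0.036.

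Whether an alternative subunit changed by a different amount than its constitutive counterpart was asked within each array, as the log2 difference between both genes, compared between groups by a two-sided exact permutation test over the 56 splits of 8 arrays into 3 and 5, whose smallest p is 0.0179. Such a difference shows unequal change and not which gene is more abundant. In all 4 pairs were compared, and p-values were adjusted over them, so that a single separated pair cannot go below an adjusted p of 0.0714 and none could be called on its own. Psmb8 minus Psmb5 shifted by 0.013 (95% interval −0.32 to 0.39, exact p = 0.946, adjusted p = 0.946), but with Psmb8 below the mark of low signal on all 8 arrays this value cannot show whether Psmb8 changed like Psmb5. The shift was 0.092 for Psmb9 minus Psmb6 (interval −0.10 to 0.29, exact p = 0.268, adjusted p = 0.536). For Psmb10 minus Psmb7 it was −0.026 (interval −0.16 to 0.13, exact p = 0.696, adjusted p = 0.929). The last 2 intervals leave room for a shift of at most 0.29 in either direction, whereas that of Psmb8 does not bear on the question.

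The testis pair differed most. Psma8 minus Psma7 was 2.83, 2.47 and 2.61 in Ing2+/+ arrays and 2.21, 2.15, 0.75, 2.18 and 1.75 in Ing2−/− arrays. All 5 Ing2−/− values were below all 3 Ing2+/+ values, with replicate 3 by far the lowest. The shift of −0.83 did not pass the exact permutation test (p = 0.0714, adjusted p = 0.286, 95% interval −2.08 to 0.16). Without Ing2−/− replicate 3 it was −0.56, with an adjusted exact p of 0.114, the smallest that 1 pair alone can reach with 3 and 4 arrays.

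**Figure D2:**
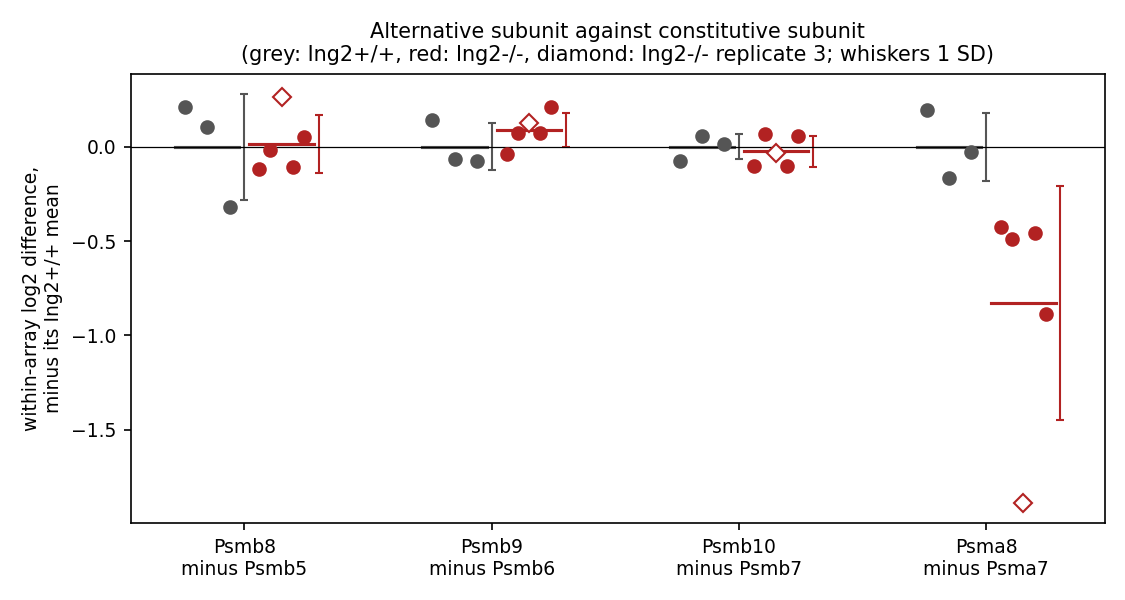
Within-array log2 difference between an alternative subunit and its constitutive counterpart, each pair set to its Ing2+/+ mean, for 3 Ing2+/+ arrays (grey) and 5 Ing2−/− arrays (red, replicate 3 drawn as a diamond). Lines mark the mean, whiskers show 1 SD, and only in the pair of Psma8 and Psma7 do the groups stand apart.

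Psma7 differed more than Psma8. Psma8 on its own was at 10.55, 10.44 and 10.43 in Ing2+/+ testes and at 10.43, 10.38, 9.79, 10.35 and 10.38 in Ing2−/− testes. The groups were 0.0042 apart, and 4 of the 5 Ing2−/− arrays lay just below the Ing2+/+ range while replicate 3 lay far below. The difference was −0.21 (SE 0.142, limma adjusted p = 0.381) with replicate 3 and −0.087 (adjusted p = 0.368) without it. In Ing2−/− replicate 3, Psma8 thus had its lowest level and Psma7 its highest.

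Among the base ATPases, which form the ring that unfolds substrates, no gene was called by limma, 2 higher and 1 lower had an unadjusted p under 0.05, and the directions were mixed. Psmc1 was at 9.48, 9.65 and 9.47 in Ing2+/+ testes and at 9.73, 9.74, 9.75, 9.74 and 9.82 in Ing2−/− testes, separate and higher (0.22, SE 0.0657, limma adjusted p = 0.0812), and its second probe set gave 0.27 (adjusted p = 0.0787). The mean of both probe sets passed the test in a limma fit over genes (adjusted p = 0.0498). That fit adjusted over 19938 genes instead of all probe sets. The adjusted p of Psma4, which has 1 probe set, fell there too, from 0.0307 to 0.022, so the pass cannot be credited to averaging. Psmc4 differed by 0.30 (SE 0.0831, adjusted p = 0.0720) with groups that overlapped by 1 array. Psmc2 was separate in the opposite direction, at 11.06, 11.07 and 11.00 against 10.89, 10.87, 10.57, 10.96 and 10.81 (−0.22, SE 0.0907, adjusted p = 0.153). Psmc6 stood at 0.23, Psmc5 at 0.076 and Psmc3 at −0.087, with adjusted p of 0.256, 0.551 and 0.507. Subunits of a single ring thus lay on both sides of 0.

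Beside Psmd1 the base holds Psmd2, a second large scaffold, at 0.088 (adjusted p = 0.362), and the ubiquitin receptor Psmd4 at 0.071 (adjusted p = 0.483). Their groups overlapped.

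In the lid 5 of 8 genes were above 0, with a median of 0.094, no call by limma and 1 gene at an unadjusted p under 0.05. Psmd14, the enzyme that cuts the ubiquitin chain from the substrate, was at 9.41, 9.38 and 9.30 in Ing2+/+ testes and 9.52, 9.37, 9.68, 9.56 and 9.68 in Ing2−/− testes (0.20, SE 0.0855, adjusted p = 0.174). Psmd7, its partner in the lid, had separate groups by 0.0125 and a difference of 0.17 (adjusted p = 0.297). Psmd8 was separate and lower by 0.0288 at the nearest arrays (−0.14, adjusted p = 0.280), and Psmd6 was at −0.15 (adjusted p = 0.236) with overlap. Psmd11, Psmd12, Psmd3 and Psmd13 ran from −0.069 to 0.11.

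The chaperones that assemble the base were all above 0, at 0.28 for Psmd5 (adjusted p = 0.105, groups separate), 0.19 for Psmd10 (adjusted p = 0.214) and 0.11 for Psmd9 (adjusted p = 0.346), with none called by limma and 1 at an unadjusted p under 0.05.

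The activators held the largest difference of the whole set, that of Psme2, and differed among themselves. None of the 4 was called by limma, and 2 had an unadjusted p under 0.05. Psme1 and Psme2 encode the subunits of 1 shared ring that interferon induces together with the immunoproteasome. Psme2 was at 6.53, 6.70 and 6.78 in Ing2+/+ testes and at 7.12, 7.36, 7.99, 7.09 and 7.47 in Ing2−/− testes. Every Ing2−/− array was at least 0.318 above the Ing2+/+ arrays, and replicate 3 was the highest. The difference was 0.74 (SE 0.191), 1.67-fold, with a limma adjusted p of 0.0595. Without Ing2−/− replicate 3 it was 0.59 and passed the test (adjusted p = 0.0136). A further probe set, shared with its close copy Psme2b and so outside the rule, differed by 0.39 (SE 0.144, adjusted p = 0.126). Signal from such close copies cannot be told apart with certainty.

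Psme1 had the same 3 highest arrays as Psme2, in the same order (Ing2−/− replicates 3, 5 and 2). Its levels were 8.39, 8.51 and 8.42 in Ing2+/+ testes and 8.70, 8.85, 9.48, 8.76 and 9.16 in Ing2−/− testes. The groups were separate and the difference was 0.55 (SE 0.171, limma adjusted p = 0.0881), or 0.43 (adjusted p = 0.0380) without replicate 3. The interferon-induced activator and the interferon-induced catalytic subunits thus gave different values in the same arrays, 0.55 and 0.74 for the former and 0.0013 to 0.16 for Psmb8, Psmb9 and Psmb10. The difference between these values was not tested.

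The other activators did not share this. Psme3, a nuclear relative of the same ring, was at 9.92, 9.89 and 9.91 in Ing2+/+ testes and 9.97, 9.91, 9.71, 9.92 and 9.94 in Ing2−/− testes (−0.016, SE 0.0728, adjusted p = 0.913), with all Ing2−/− arrays but replicate 3 at or near the Ing2+/+ level. Array weights and cyclic loess turned its sign. Psme4, a single large protein that caps the core and is known for its abundance in testis and its part in removing histones from spermatids, had 11.42, 11.27 and 11.35 in Ing2+/+ testes and 11.25, 11.21, 11.01, 11.28 and 11.16 in Ing2−/− testes. The groups overlapped slightly and the difference was −0.16 (SE 0.0784, adjusted p = 0.208).

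Psmf1, which binds the core and inhibits it in vitro, had the lowest difference of the 48. Its levels were 10.06, 10.07 and 10.15 in Ing2+/+ testes and 10.01, 9.89, 9.32, 9.79 and 9.63 in Ing2−/− testes. All 5 were below the Ing2+/+ arrays, though replicate 1 by only 0.0586. The difference of −0.37 (SE 0.143, limma adjusted p = 0.140) became −0.26 (adjusted p = 0.0922) without replicate 3, and passed the test in neither case.

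**Figure D3:**
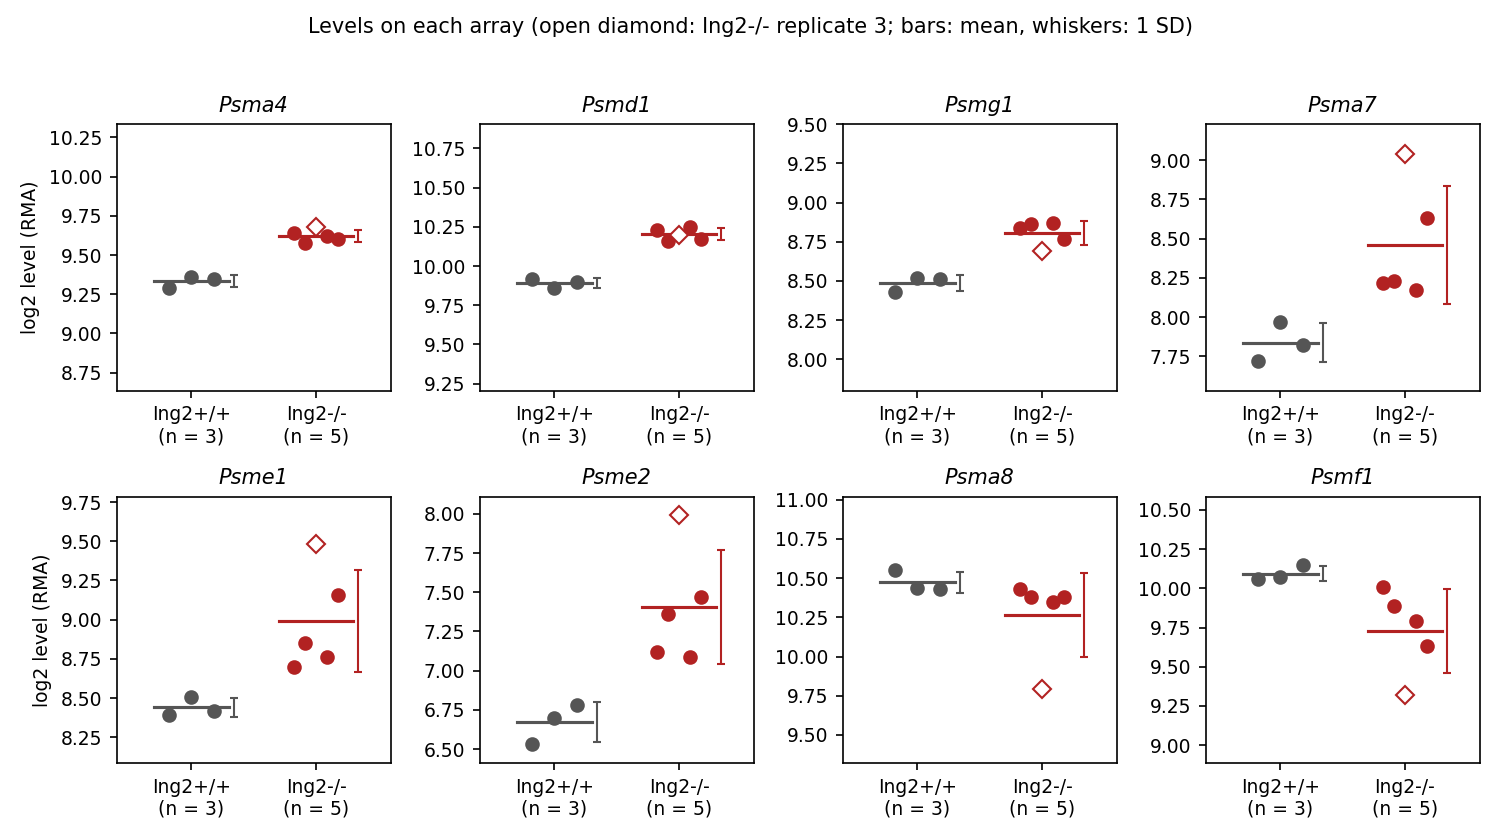
Log2 levels of 8 proteasome genes on each array, with the mean as a line and 1 SD as a whisker for 3 Ing2+/+ (grey) and 5 Ing2−/− (red) testes, all panels spanning the same log2 range. Psma4, Psmd1 and Psmg1 are tight in both groups, whereas Psma7, Psme1, Psme2, Psma8 and Psmf1 have Ing2−/− replicate 3 (open diamond) at the far end of the group.

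Promoters were read for the genes on which these results turn: the called genes Psma4, Psmd1 and Psmg1, the activator pair Psme1 and Psme2, and Psmb8 as an interferon-induced subunit whose level was low throughout. The sequences are from RefSeq on GRCm38.p6, 250 bases that end at the base before the start site, written 5′ to 3′ on the strand of the gene. They lie at chr9:54950609-54950858 (plus strand) for Psma4, chr1:86064369-86064618 (plus strand) for Psmd1, chr16:95990961-95991210 (minus) for Psmg1, chr14:55578244-55578493 (plus) for Psme1, chr14:55591102-55591351 (minus) for Psme2 and chr17:34197945-34198194 (plus) for Psmb8, so that Psme1 and Psme2 are near neighbours on opposite strands. Psme2 has 2 start sites in the table and the outer one is shown. Capitals mark a match to any of the motifs named after the sequences.
Psma4: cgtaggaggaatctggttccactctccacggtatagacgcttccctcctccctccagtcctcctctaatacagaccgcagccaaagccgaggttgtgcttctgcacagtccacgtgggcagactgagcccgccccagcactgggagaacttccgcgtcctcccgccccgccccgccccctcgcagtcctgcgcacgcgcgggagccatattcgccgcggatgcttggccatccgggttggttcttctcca
Psmd1: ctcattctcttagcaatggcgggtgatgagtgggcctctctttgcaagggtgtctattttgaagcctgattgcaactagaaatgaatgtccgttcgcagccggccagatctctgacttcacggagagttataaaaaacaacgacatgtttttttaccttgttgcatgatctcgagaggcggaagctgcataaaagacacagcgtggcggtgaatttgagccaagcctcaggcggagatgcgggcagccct
Psmg1: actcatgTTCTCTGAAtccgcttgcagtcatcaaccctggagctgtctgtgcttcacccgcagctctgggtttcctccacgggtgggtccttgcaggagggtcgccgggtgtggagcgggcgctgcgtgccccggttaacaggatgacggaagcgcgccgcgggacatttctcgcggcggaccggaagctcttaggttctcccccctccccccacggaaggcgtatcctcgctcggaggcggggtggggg
Psme1: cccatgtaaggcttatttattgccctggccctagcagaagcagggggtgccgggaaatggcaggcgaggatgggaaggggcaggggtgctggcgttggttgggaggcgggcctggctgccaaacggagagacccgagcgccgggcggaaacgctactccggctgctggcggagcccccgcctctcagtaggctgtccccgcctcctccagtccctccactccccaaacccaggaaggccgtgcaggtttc
Psme2: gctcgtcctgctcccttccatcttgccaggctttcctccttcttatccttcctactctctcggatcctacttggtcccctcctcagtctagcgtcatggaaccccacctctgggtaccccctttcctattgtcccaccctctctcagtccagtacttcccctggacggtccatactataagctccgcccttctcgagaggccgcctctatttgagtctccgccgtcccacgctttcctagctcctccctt
Psmb8: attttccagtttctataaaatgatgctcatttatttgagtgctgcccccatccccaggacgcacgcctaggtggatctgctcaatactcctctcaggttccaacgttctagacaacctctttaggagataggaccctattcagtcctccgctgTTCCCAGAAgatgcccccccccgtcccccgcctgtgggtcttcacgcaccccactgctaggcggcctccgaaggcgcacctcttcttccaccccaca

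The motifs were searched on both strands from 250 bases before to 50 after each start site. Of the 48 genes 40 matched the promoter table, with 43 of its 32851 start sites. The core of the element bound by interferon-regulated transcription factors, GAAANNGAA, was in 16.3% of proteasome promoters and 8.56% of all. The genes were Psmb3, Psmb4, Psmc2, Psmd4, Psmd9, Psme1 and Psmg4. In Psme1 the match lies 10 bases past the start site and reads TTCGCTTTC on the strand of the gene, outside the stretch printed. The core bound by Stat factors, TTCNNNGAA, was in 6.98% against 8.30%, in Psmb8, Psmd2 and Psmg1. It is the motif in capitals, TTCCCAGAA in Psmb8 and TTCTCTGAA in Psmg1.

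The antioxidant response core TGACNNNGC, to which Nfe2l1 and Nfe2l2 bind with their partners to raise proteasome genes, was in 14% of proteasome promoters and 12.4% of all, in Psmb5, Psmb6, Psmc6, Psmd12, Psmd9 and Psme4. None of these 6 was called, and they stood on both sides of 0. CCAAT was in 32.6% against 37.4%, and the cyclic AMP element TGACGTCA in 0 of the 43 against 1.79% of all. The motifs overlap in part and a match is not a bound site.

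Ing2−/− replicate 3 was often at an end of its group. It was the highest of the 5 Ing2−/− arrays in 20 of the 36 genes above 0 and the lowest in 11 of the 12 genes below 0. Genes were sorted into above and below 0 by means that include replicate 3, which by itself favours such counts. The same counts were not made over all genes, so they are not shown to be particular to the proteasome genes. Across all probe sets, too, replicate 3 stood apart from its group. Leaving it out lowered the median of the alpha ring from 0.26 to 0.21 and that of the activators from 0.27 to 0.23, and moved Psmf1 and Psma8 toward 0, as given above. Smaller differences moved too, to 0.10 for Psmd7, −0.087 for Psmd8, −0.039 for Psmc3, −0.031 for Psmd13, −0.014 for Psma6, 0.093 for Psmb8, 0.12 for Psmc5 and 0.029 for Psme3, and none of these genes was called with or without it. Psmg2 came to 0.0016. The median over all 48 genes was 0.11 either way.

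Markers of several cell types also differed in the same arrays. Markers of each cell type were listed from what is generally known of the testis. A list was scored on each array by averaging, over its genes, the distance from the Ing2+/+ mean. Sertoli cell markers were above 0 in 13 of 13 genes, with scores of −0.022 to 0.026 in Ing2+/+ testes and 0.39, 0.33, 1.07, 0.31 and 0.54 in Ing2−/− testes. Leydig cell markers were above 0 in 6 of 6, 4 of them called (Cyp11a1, Cyp17a1, Hsd3b1 and Hsd17b3), with −0.053 to 0.036 and 0.49, 0.58, 1.19, 0.38 and 0.85. These 5 Leydig scores and the 5 levels of Psme2 have the same order of arrays. In Psme1 replicates 1 and 4 trade places in that order, and in the Sertoli scores replicates 1 and 2 do. The match was picked out after the values were seen and was not tested. Round spermatid markers were below 0 in 10 of 10, at −0.022 to 0.019 and −0.27, −0.31, −0.87, −0.17 and −0.34. Pachytene spermatocyte markers were below 0 in 9 of 10, at −0.022 to 0.033 in Ing2+/+ and −0.58 to −0.14 in Ing2−/− testes, elongating spermatid markers in 10 of 10 and spermatogonial markers in 0 of 10. Without Ing2−/− replicate 3 the count of markers called higher went from 1 to 10 for Sertoli cells and from 4 to 5 for Leydig cells. That of round spermatid markers called lower went from 1 to 3. Over all 19938 genes, calls went from 392 to 1739 higher and from 600 to 1547 lower.

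Markers of blood cells and of vessel cells differed among themselves. Macrophage markers were above 0 in 10 of 12 genes (83.3%, against 54.3% of all genes), with none called by limma. Of the 12, 5 had an unadjusted p under 0.05 (41.7%, against 30.0% of all genes). Their scores were −0.014 to 0.010 in Ing2+/+ testes and 0.10 to 0.37 in Ing2−/− testes. Endothelial markers were above 0 in 7 of 8, with Kdr called higher. Lymphocyte markers were above 0 in 4 of 8, at −0.043 to 0.029 and −0.058 to 0.065. Of these 8, Cd3g, Cd4, Cd79a, Ms4a1 and Nkg7 were below the mark of low signal on all 8 arrays. Of the other markers only Nanos2 was below it on all arrays, and Amh, Cd14 and Cd163 were on some. The part of the cell makeup in the changes of Psma7, Psme1, Psme2, Psma8 and Psmf1 was not tested.

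**Figure D4:**
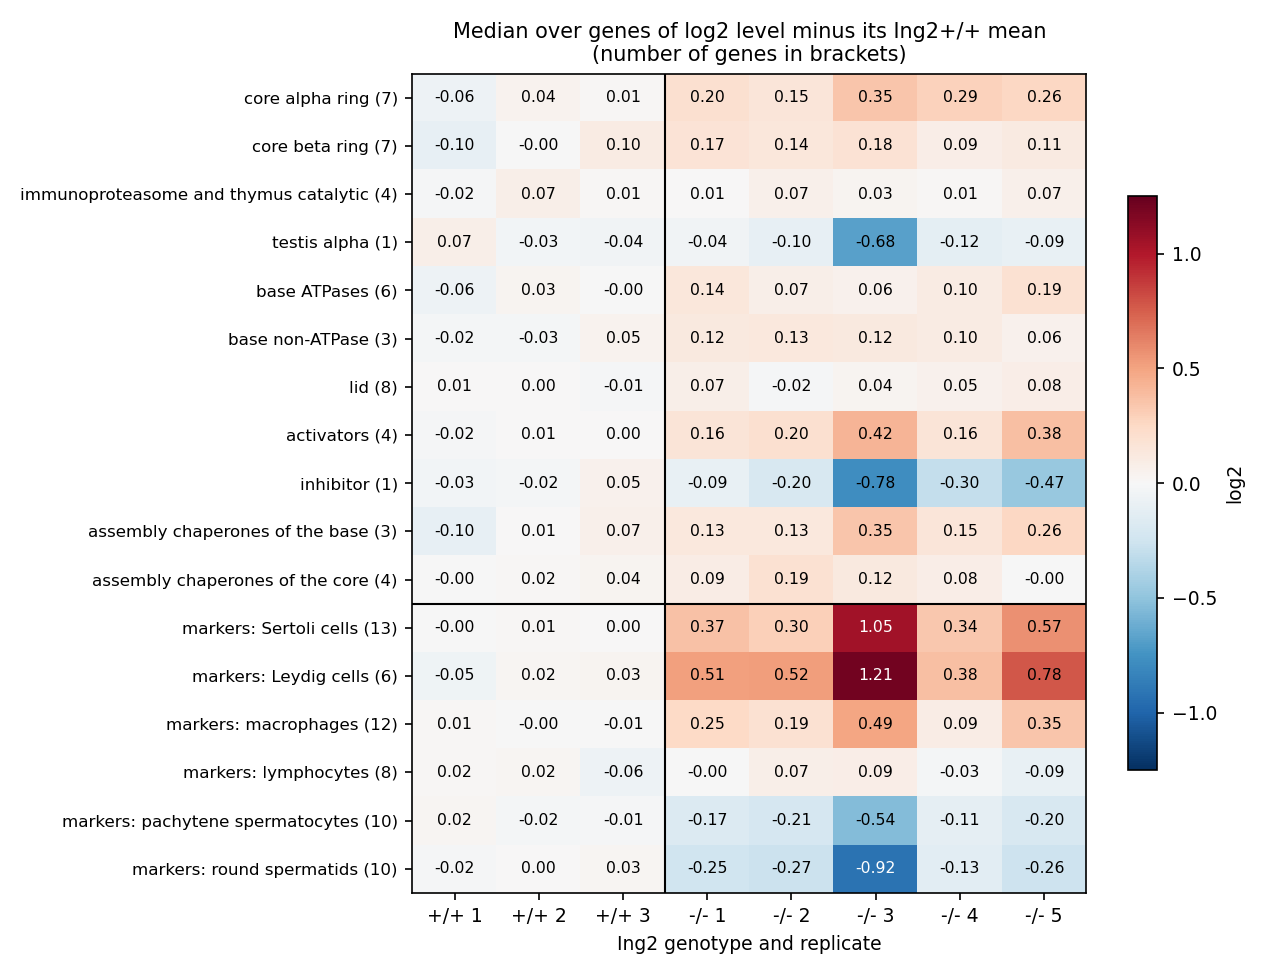
Median over the genes of each proteasome class and of 6 marker lists of the log2 level minus its Ing2+/+ mean, for each of the 8 arrays (red higher, blue lower, gene number in brackets). The alpha ring is above 0 in all 5 Ing2−/− arrays (0.15 to 0.35), the immunoproteasome class is near 0, and replicate 3 holds the extreme value of Psma8, Psmf1, and the Sertoli, Leydig and round spermatid lists.

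Genes around the proteasome were read from lists drawn up alongside the classes. Of proteins that join or assemble the proteasome without the symbol, 9 of 12 were measured and none was called by limma, with 2 at an unadjusted p under 0.05. The smallest p-values were those of Pomp, the chaperone that matures the beta rings (0.20, adjusted p = 0.113), and Txnl1, a thioredoxin-like protein that binds the proteasome (0.23, adjusted p = 0.119). Of the 9 measured, 5 stood above 0 and 4 below, the lowest of them at −0.11. Adrm1, Paaf1 and Ubr4 were not analysed here.

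Of ubiquitin genes, activating enzymes and shuttle factors, 8 of 15 were measured and 1 was called. Uba6, an enzyme that activates ubiquitin, was at 8.81, 8.67 and 8.71 in Ing2+/+ testes and 9.17, 8.96, 9.35, 9.10 and 9.18 in Ing2−/− testes, and rose by 0.42 (SE 0.0901, limma adjusted p = 0.0396). The shuttle factor Rad23b was separate in the opposite direction at −0.25 (adjusted p = 0.0901), and at −0.20 (adjusted p = 0.0471) without Ing2−/− replicate 3.

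Of 7 measured transcription factors of proteasome genes none was called by limma, with 1 at an unadjusted p under 0.05. They lay on both sides of 0, with 4 above and 3 below. Below were Mybl1 at −0.19, Crem at −0.25 and Rfx2 at −0.31 (adjusted p = 0.302, 0.37 and 0.298). Irf1 at 0.094 and Nlrc5 at 0.18 were above (adjusted p = 0.507 and 0.349). Nfe2l1, the factor that raises proteasome genes when the proteasome is impaired, was at 8.58, 8.59 and 8.61 in Ing2+/+ testes and 8.88, 8.92, 9.41, 8.89 and 9.04 in Ing2−/− testes, separate by group, with a difference of 0.44 (SE 0.120, adjusted p = 0.0693). The Ing2+/+ arrays hardly differed, and replicate 3 was again the highest. Without it the difference was 0.34 and passed the test (limma adjusted p = 0.0128). Nfe2l2 differed by 0.39 (adjusted p = 0.259) with replicate 3 and by 0.22 (adjusted p = 0.220) without it.

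The products of MHC class I antigen processing genes take up the peptides that the proteasome makes. Of 10 such genes listed, 8 were measured, and H2-K1 and H2-D1 were not analysed here. All 8 were above 0 with a median of 0.23, Pdia3 by only 0.00017, and none was called by limma. B2m had the largest difference, 0.40 with overlapping groups (adjusted p = 0.408), and 0.19 (adjusted p = 0.577) without Ing2−/− replicate 3. At an unadjusted p under 0.05 there were 4, and the smallest adjusted p were those of the chaperones Canx (0.22, adjusted p = 0.0803) and Calr (0.20, adjusted p = 0.0813). Tap1 and Tap2, which carry peptides into the endoplasmic reticulum, were at 0.21 and 0.24 (adjusted p = 0.255 and 0.132). Tapbp, which links these transporters to class I molecules, differed by 0.36 (adjusted p = 0.129), and by 0.25 (adjusted p = 0.0387) without Ing2−/− replicate 3, when it was the 1 gene of the list called.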

How the data were processed

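Whole testis RNA was read on 8 Affymetrix arrays, 3 of Ing2+/+ and 5 of Ing2−/− mice. The deposited values are on the log2 scale. The authors made them with RMA in Affymetrix Expression Console, which corrects background, brings arrays to a common distribution and summarizes probes by gene, so that a change in total RNA leaves no trace and small changes are relative to all other transcripts. Scanner files were not used here. Gene names came from the annotation of the platform, with symbols updated by gene identifier for 21698 of 21789 probe sets that had 1 symbol. A further 1621 had several symbols and 12147 had none.

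All 35557 probe sets were fitted in R 4.3.3 by lmFit and eBayes of limma 3.58.1, without a covariate (prior degrees of freedom 2.85), with Benjamini-Hochberg adjustment over all of them. The methods name a two-sample test with a random variance model at an unadjusted p under 0.001, which was run as an alternative. Pair differences were compared by exact permutation in Python 3.11.15, and their intervals come from inverting that test. The script was tested on simulated data. The members, classes and lists were chosen with earlier results of these data known. Named genes are Ing2, all alternative forms, activators and the inhibitor with their counterparts, all called members, the 3 smallest p-values of each class, and the called or 2 smallest p-values of each further list. The other members, Rad23b, Mybl1, Crem, Rfx2, Irf1, Nlrc5, Tap1, Tap2, Tapbp, B2m and Pdia3 were named after their values were seen. Alternatives were each array left out, median centring, cyclic loess, array weights, 3 variance models, 2 filters of probe sets, an average over the probe sets of a gene and the replicate number as a block. Nothing in the sources says that RNA was pooled, and p-values measure the spread between these arrays, whose number limits the precision. No sequence of Psma8 or Psmg2 is printed.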

Additional observations from a re-analysis of the deposited data

Results flagged for a closer look

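In 7 of the 48 proteasome genes, 1 Ing2−/− array lay far from the other 4, as the gap to its nearest neighbour divided by the range of the 5 arrays passed the 95% critical value of Dixon's test for 5 samples. For independent values with normal spread, chance gives about 1 such gene in 20. The share among all genes on these arrays was not counted, and replicate 3 stood apart over all probe sets. The 7 genes are thus not shown to exceed other genes. In 4 of the 7 genes the distant array was replicate 3, which was low. The ratio was 0.881 for Psma8 (level 9.79 in replicate 3, a gap of 0.56 on the log2 scale), 0.800 for Psma6 (10.76, gap 0.17), 0.772 for Psmc3 (10.64, gap 0.20) and 0.759 for Psme3 (9.71, gap 0.20). In the other 3 genes it was a different array. The ratio was 0.820 for Psmc1, where replicate 5 was high (9.82, gap 0.075), 0.820 for Psmc4, where replicate 4 was low (8.74, gap 0.17), and 0.713 for Psmg4, where replicate 2 was high (5.90, gap 0.21).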

How the results depend on the processing

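The count of 3 proteasome genes called became 1 with median centring, 11 with array weights, 5 when the probe sets of a gene were averaged, and 0 to 7 with 1 array left out. Between these fits the number of all genes called went from 40 (without Ing2+/+ replicate 2) to 4107 (array weights), against 992. Other counts were 1614 with averaged probe sets, 1646 with probe sets of 1 symbol, 540 under the random variance model and 142 without moderation of the variance. With the replicate number as a block 0 members and 0 genes were called by limma, although 11 members and 4513 genes had an unadjusted p under 0.05. Deviations of arrays with the same number correlated at −0.0679, 0.131 and −0.05, so the numbers were not taken as pairs. Psme2 was called by limma with array weights (adjusted p = 0.0115), probe sets above the median level (0.0421) and probe sets with 1 symbol (0.0437). It was also called in the fit of averaged probe sets (0.0439). Psme2 has only 1 probe set within the rule, so its own values were the same there. What differed was the fit and the adjustment, made over 19938 genes.

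Class medians with centring were 0.06 for all members, 0.10 for the beta ring, −0.029 for the immunoproteasome class, 0.037 for the non-ATPase base and 0.043 for the lid, and with cyclic loess −0.036 for the immunoproteasome class and 0.15 for the non-ATPase base. With 1 array left out the beta ring ran from 0.093 to 0.21 and the immunoproteasome class from −0.0057 to 0.058. Changes near 0 turned sign. Psmb9 was −0.05 with centring, −0.073 with loess, −0.00042 with the replicate block and −0.032 to 0.025 with 1 array left out. Psmb10 was −0.014, −0.032 with loess and −0.041 to 0.084. Psmb11 was −0.045, −0.041, −0.025 with the block and −0.037 to 0.045. Psme3 was 0.023 with array weights, 0.0069 with loess and −0.037 to 0.029. Of the pairs, Psmb9 minus Psmb6 was −0.0074 with loess, while leaving out arrays gave −0.15 to 0.12 for Psmb8 minus Psmb5, 0.053 to 0.16 for Psmb9 minus Psmb6, and −0.062 to 0.0035 for Psmb10 minus Psmb7. The cause was not tested.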
